A study of Mus musculus with 4 samples.

Results

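Mitochondrial fatty acid oxidation and ketone metabolism were followed through 35 genes in mouse brown adipose tissue (BAT), the fat depot specialised for making heat. Members were the listed genes with a probe set that the platform annotation assigns to 1 gene symbol, and the probe set with the highest mean was kept for each. This gave 32 of the 35 genes, out of 22180 genes measured. Mut was found under its current symbol Mmut. Cpt1b, the carnitine palmitoyltransferase of muscle and brown fat, and Acsm3, a medium-chain acyl-CoA synthetase, have annotated probe sets shared with neighbouring genes, and Acsl1, the main long-chain acyl-CoA synthetase of fat, has none listed; these 3 genes were not analysed here.

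The samples were 2 Tsku knockout (KO) and 2 wild-type (WT) samples, with 1 whole-transcript array each; all mice were C57BL/6 males, 4 months of age, on a chow diet. Tsku encodes tsukushi, a secreted small leucine-rich proteoglycan; no probe set is listed for it here, so the genotype labels were not checked against its level. The labels give neither the design of the knockout allele nor whether a sample is 1 animal or a pool. The spread between samples may therefore not be that between animals. The limma p-values, SEs and intervals also do not rest on a gene's own samples alone. They draw each gene's spread towards that of all genes, with 2 residual and 3.96 prior degrees of freedom. Values are the deposited log2 expression values, and a difference is the mean KO value minus the mean WT value.

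Brown fat oxidises fatty acids to drive heat production. Long-chain fatty acids are activated to acyl-CoA, carried into the mitochondrion as carnitine esters, and shortened in repeated rounds of dehydrogenation, hydration, a further dehydrogenation and thiolytic cleavage. Electrons pass through the electron transfer flavoproteins to the respiratory chain, and the acetyl-CoA formed feeds the tricarboxylic acid cycle or, in liver, ketone bodies that other tissues burn.

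The labelled tissue was checked first. Of 16 measured brown adipocyte markers 14 lay above background on all 4 arrays, as did 4 of 9 white adipocyte markers. Over all genes 9927 of 22180 did. Background was set on each array from 1405 probe sets for olfactory and vomeronasal receptors, as their 95th percentile, and lay between 0.63 and 0.81. The brown adipocyte markers themselves were higher in KO in 15 of 16 genes, against 52.6% of all genes. Their median difference was 0.36, and their summed signal (values taken out of the log2 scale) was 3038 to 3111 in KO against 2412 to 2554 in WT. Of these 5 had an unadjusted limma p under 0.05, against 5.56% of all genes, and 0 passed the adjusted threshold. Dio2, which activates thyroid hormone, differed by 2.03 (limma adjusted p = 0.736), Otop1 by 1.09 and Prdm16 by 0.999. Abundant adipocyte markers were higher in KO in 11 of 14 genes (median 0.12, summed signal 6894 to 7084 in KO against 6372 to 6420 in WT). Endothelial markers were evenly divided, with 7 higher and 7 lower in KO (median -0.03). The KO arrays lay on either side of WT, with a summed signal of 649 in replicate 1 and 881 in replicate 2, against 679 to 775 in WT. White adipocyte markers were higher in 5 of 9 genes (median 0.03), with differences from -1.01 to 1.08. Their summed signal was nevertheless lower in KO, at 167 to 172 against 220 to 227 in WT. Markers of several other cell types went mostly in a single direction. All 25 skeletal muscle markers were lower in KO, with a median difference of -1.66 and a summed signal of 136 to 306 in KO against 439 to 673 in WT. Of these, 18 were above background on all arrays, Myot and Ryr1 were below it in KO, and Cacng1 was below it on all 4. Of 19 liver markers 18 were higher in KO (median 0.26, summed signal 1176 to 1405 in KO against 1068 to 1185 in WT), with 8 above background on all arrays and Serpina1b, Apoh, Fgg and Cyp3a11 below it on all 4. Of 18 macrophage markers 15 were lower (median -0.37, summed signal 180 to 307 in KO against 296 to 309 in WT), and 15 were above background on all arrays. For liver and macrophage markers KO replicate 1 stood apart: relative to a gene's own 4-array mean the median liver marker was at 0.37 and -0.14 in KO and -0.11 and -0.25 in WT, and the median macrophage marker at -0.47 and 0.09 in KO and 0.09 and 0.21 in WT. Of 9 fibroblast and progenitor markers, all above background on all arrays, 8 were lower (median -0.20, summed signal 434 to 487 in KO against 525 to 532 in WT). Muscle and liver use fatty acid oxidation genes too, and the part of these cell types and tissues in the differences below was not tested. In whole tissue, fewer cells of a type and less RNA per cell cannot be told apart.

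The oxidation genes differed little between the genotypes. Of the 32 measured, 20 were higher and 12 lower in KO, with a median log2 difference of 0.03, against 0.02 over all genes, of which 52.6% were higher. Differences ran from -0.33 for Acad12 to 0.55 for Mlycd. Of the 32 genes 21 (65.6%) differed by less than 0.15 in size, against 43.6% of all genes. Small differences went with brightness. Of 20 members with a mean of at least 7, 17 differed by less than 0.15, against 67.5% of the 483 genes that bright. Of the 12 dimmer members 4 did, against 38.9% of the 9444 dimmer genes above background on all arrays. No gene passed the threshold of an adjusted p under 0.05 in limma with Benjamini-Hochberg adjustment (0% of all genes), and the members' adjusted p ran from 0.872 to 0.998. At an unadjusted limma p under 0.05 there were also 0 members, against 5.56% of all genes. The KO and WT arrays did not overlap in 11 members (34.4%), against 35.2% of all genes; 9 were higher, where the background is 19.4%, and 2 lower, where it is 15.8%. For 27 members (84.4%) the 95% interval lay within 1 log2 unit of 0 on both sides, so that a 2-fold difference in either direction lay outside it. This was near the share over all genes, 81.3%. The exceptions among the members were Cpt1a, Mlycd, Acad10, Acad12 and Hadhb.

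**Figure D1:**
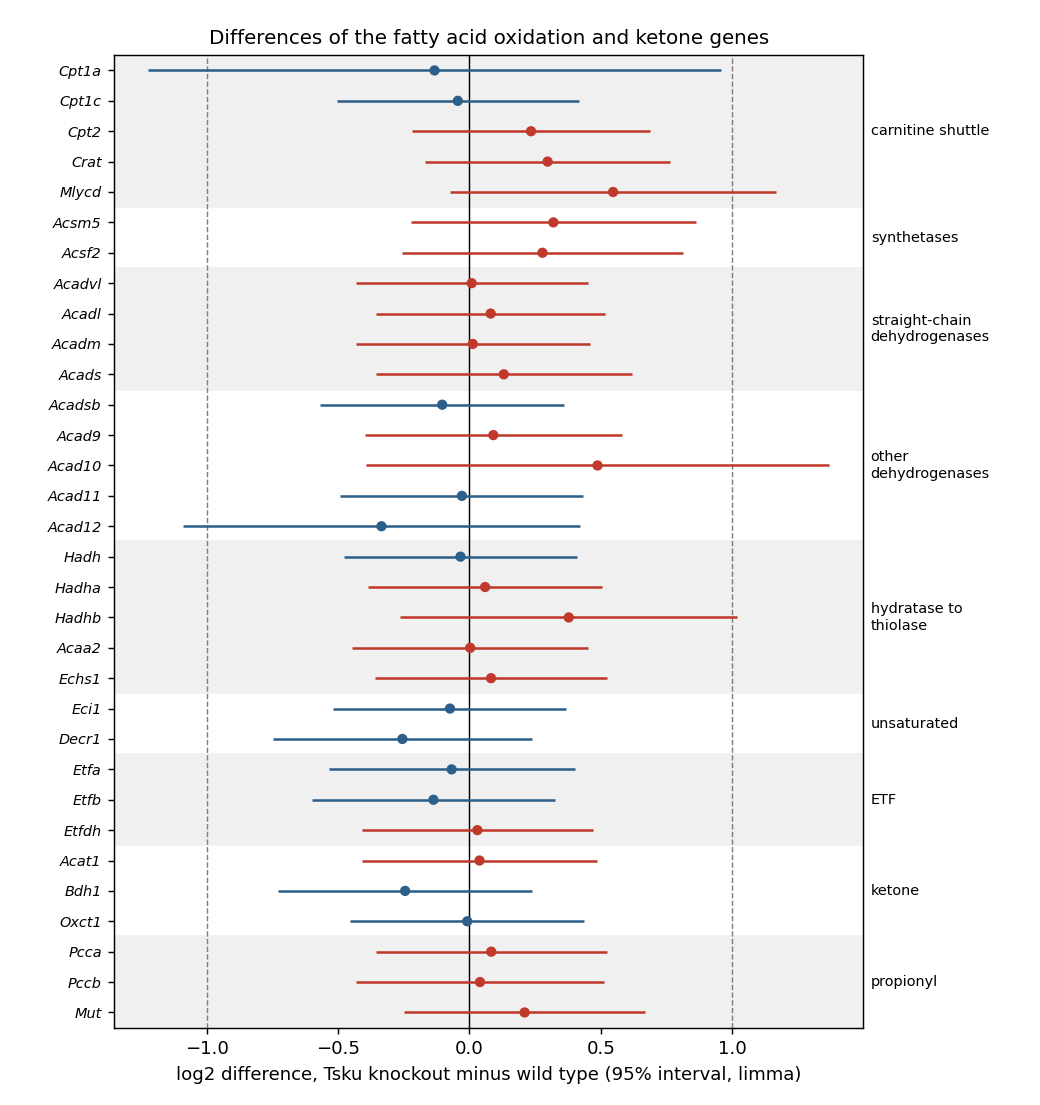
Log2 difference of each measured gene, KO minus WT, with its 95% interval from limma (x axis), grouped by role (labels at right). Red marks genes higher and blue genes lower in KO, and dashed lines mark 1 log2 unit. Every interval includes 0, and 5 of the 32 cross a dashed line.

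The carnitine shuttle held the largest difference. Mlycd encodes malonyl-CoA decarboxylase, which removes the metabolite that inhibits carnitine palmitoyltransferase 1. It read 3.52 and 2.92 in KO, against 2.60 and 2.75 in WT. Both KO arrays lay above both WT arrays, KO replicate 1 by far the more. The log2 difference was 0.55 (SE 0.25, 95% interval -0.07 to 1.17), or 1.46-fold, with a limma adjusted p of 0.872. It was 0.25 without KO replicate 1 and 0.85 without KO replicate 2. The Mlycd promoter window is shown because this gene differed most. It lies at chr8:119394644-119394943 (GRCm38.p6, plus strand, RefSeq) and spans 250 bases before to 50 after the annotated start. Capitals mark its 2 matches to the ETS motif CCGGAAG.
Mlycd: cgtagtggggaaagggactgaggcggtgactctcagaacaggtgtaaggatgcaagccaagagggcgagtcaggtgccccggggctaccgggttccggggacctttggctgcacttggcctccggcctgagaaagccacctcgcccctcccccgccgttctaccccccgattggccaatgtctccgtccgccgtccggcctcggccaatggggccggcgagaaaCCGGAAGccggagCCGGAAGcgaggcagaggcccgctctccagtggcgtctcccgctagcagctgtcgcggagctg
These matches begin 26 and 13 bases before the start. The motif, searched on both strands, was in 8.86% of 32851 RefSeq windows of this length, and in those of Mlycd and Cpt2 among the 28 listed genes with a window.

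Crat, carnitine acetyltransferase, which buffers acetyl-CoA as acetylcarnitine, read 8.40 and 8.45 in KO and 8.24 and 8.02 in WT. The KO arrays lay close together and above both WT arrays, with a difference of 0.30 (SE 0.19, 95% interval -0.17 to 0.76) that was 0.19 without WT replicate 2. A second, dimmer Crat probe set differed by 0.35, with values of 0.60 and 1.63 in KO and 1.02 and 0.51 in WT that overlapped. Cpt2, the inner-membrane transferase that hands the acyl group back to CoA, read 7.74 and 7.58 in KO and 7.44 and 7.42 in WT. Its groups did not overlap, with a difference of 0.23 (SE 0.18, 95% interval -0.22 to 0.69) that was 0.16 without KO replicate 1.

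Cpt1a, the outer-membrane transferase prominent in liver, was the second most variable member. It read 2.92 and 3.81 in KO, against 4.04 and 2.95 in WT. A high and a low array in each genotype left a difference of -0.13 (SE 0.45), which was 0.31 without KO replicate 1 and -0.68 without WT replicate 2. Cpt1c, a brain form found in the endoplasmic reticulum, read 1.005 and 1.05 in KO and 1.17 and 0.98 in WT, close to background, with a difference of -0.04. Slc25a20, which exchanges acylcarnitine for carnitine across the inner membrane, differed by 0.18 (95% interval -0.29 to 0.64).

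Both measured acyl-CoA synthetases were higher on each KO array than on each WT array, by narrow margins. Acsf2, a mitochondrial medium-chain synthetase, read 5.10 and 5.14 in KO and 5.06 and 4.63 in WT, a difference of 0.28 (SE 0.22) that was 0.06 without WT replicate 2. Acsm5, another medium-chain synthetase, read 1.83 and 1.562 in KO and 1.19 and 1.560 in WT, a difference of 0.32 (SE 0.22) that was 0.14 without WT replicate 1.

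**Figure D2:**
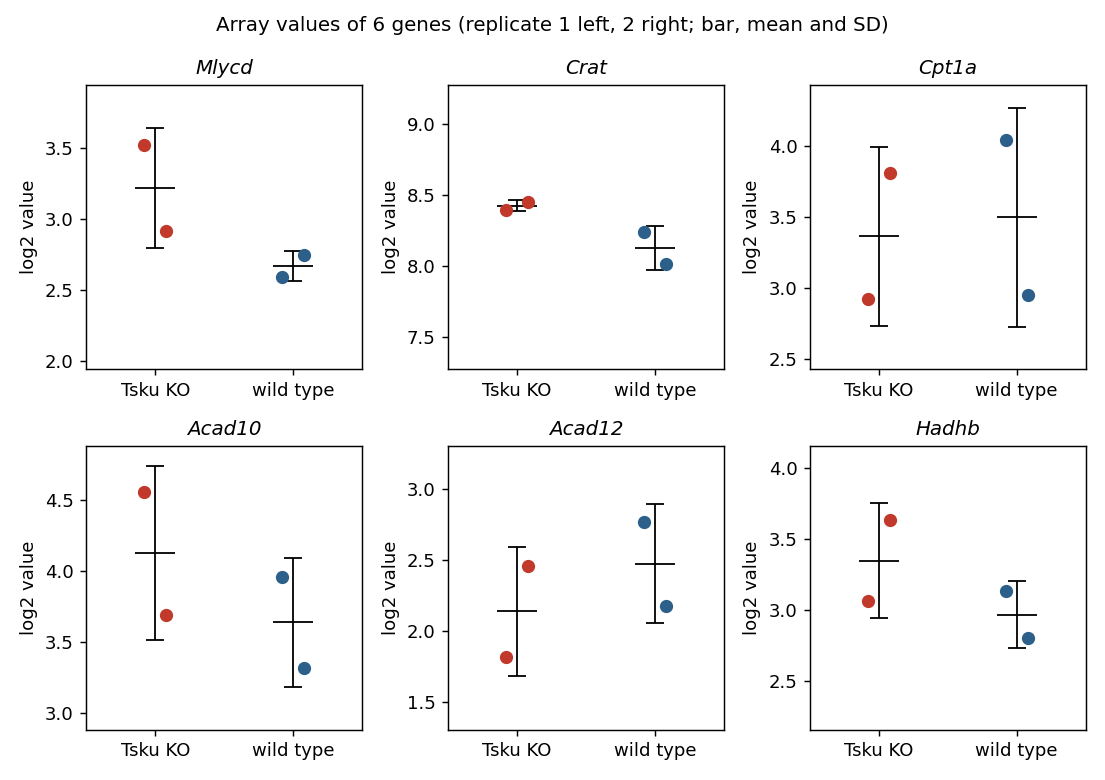
Log2 values of 6 genes on each array (y axis, each panel 2 log2 units high) in KO (red, left) and WT (blue, right); the bar gives the mean and SD of 2 arrays. Mlycd and Crat do not overlap between genotypes, whereas Cpt1a, Acad10, Acad12 and Hadhb do.

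The straight-chain acyl-CoA dehydrogenases, which open each round of oxidation for successive chain lengths, differed by 0.01 to 0.13. Acadl, the long-chain enzyme, read 10.07 and 10.07 in KO and 9.98 and 9.99 in WT. Replicates of a genotype lay within 0.01 of each other and the groups did not overlap, yet the difference was 0.08 (SE 0.18), or 1.06-fold. The SD of its own arrays was 0.0046 in KO and 0.0047 in WT. The much larger SE comes from the spread over all genes that limma draws on. Acads, the short-chain enzyme, read 8.08 and 7.79 in KO and 7.84 and 7.76 in WT; these overlap, with a difference of 0.13 (SE 0.20). Acadvl, the very-long-chain enzyme, differed by 0.01 (95% interval -0.43 to 0.45) and Acadm, the medium-chain enzyme, by 0.01 (95% interval -0.43 to 0.46).

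Among the other acyl-CoA dehydrogenases the values were more scattered. Acad10 and Acad12 are neighbouring paralogs on chromosome 5, with annotated starts 41572 bases apart. Acad10 read 4.56 and 3.69 in KO and 3.96 and 3.32 in WT, a difference of 0.49 (SE 0.36, 95% interval -0.39 to 1.37). Acad12 read 1.82 and 2.46 in KO and 2.77 and 2.18 in WT, a difference of -0.33 (SE 0.31, 95% interval -1.09 to 0.42). KO replicate 1 was the highest array for Acad10 and the lowest for Acad12. Without it the differences were 0.05 and -0.02. WT replicate 1 was above WT replicate 2 for both genes. Their promoter windows are shown because the paralogs share much of this sequence while their signals diverged on KO replicate 1. They lie at chr5:121660461-121660760 for Acad10 and chr5:121618889-121619188 for Acad12 (GRCm38.p6, minus strand, RefSeq). Capitals mark the core motif of nuclear respiratory factor 1 (NRF1), a regulator of nuclear genes for mitochondria.
Acad10: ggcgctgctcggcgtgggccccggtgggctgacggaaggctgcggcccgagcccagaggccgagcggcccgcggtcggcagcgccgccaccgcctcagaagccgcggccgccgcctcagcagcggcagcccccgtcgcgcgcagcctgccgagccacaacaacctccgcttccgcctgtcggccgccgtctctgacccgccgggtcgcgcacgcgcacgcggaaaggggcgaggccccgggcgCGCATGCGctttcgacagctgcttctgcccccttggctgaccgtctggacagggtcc
Acad12: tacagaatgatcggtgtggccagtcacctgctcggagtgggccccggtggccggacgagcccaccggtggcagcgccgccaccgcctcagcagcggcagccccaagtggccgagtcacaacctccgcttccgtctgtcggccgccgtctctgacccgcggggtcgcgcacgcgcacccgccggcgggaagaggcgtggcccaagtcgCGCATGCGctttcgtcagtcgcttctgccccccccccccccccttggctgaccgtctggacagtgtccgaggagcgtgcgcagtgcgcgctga
Aligned end to end, 223 of 252 ungapped positions were identical (88.5%), and the longest identical run was 25 bases. The palindromic NRF1 core CGCATGCG, searched on both strands, begins 7 bases before the Acad10 start and 43 before the Acad12 start. It was in 1.87% of 32851 windows. Among the 28 listed genes with a window it was in those of 5 (17.9%), Acad10, Acad12, Acadm, Etfdh and Pccb. Background shares count windows and member shares count genes, and the 28 genes have 31 windows. By window the core was in 5 of the 31. The Acad10 and Acad12 windows are largely alike, so their matches are not separate. With a G before and a C after it, the form searched first, the core was in 0.971% of windows and in those of 3 listed genes (10.7%), Acad10, Acad12 and Etfdh; the shorter core was chosen after those matches were seen. How far the probes of each paralog pick up RNA of the other was not tested.

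Acad9, a dehydrogenase that also helps to assemble respiratory complex I, differed by 0.09 (SE 0.20). Of 5 measured partners in that assembly 3 were higher and 2 lower, and 0 had an unadjusted limma p under 0.05; Tmem126b differed by 0.41 and Tmem186 by -0.33. Acadsb, which acts on short branched chains, differed by -0.10, and Acad11, which acts on long-chain substrates, by -0.03.

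The later steps of the spiral held both even and uneven signals. Hadha and Hadhb encode the subunits of the mitochondrial trifunctional protein, which hydrates, oxidises and cleaves long-chain intermediates. Hadha read 9.42 and 9.35 in KO and 9.37 and 9.28 in WT, a range of 0.14 over the 4 arrays and a difference of 0.06 (SE 0.18) that was 0.018 without WT replicate 2. Hadhb read 3.06 and 3.63 in KO and 3.13 and 2.80 in WT, a range of 0.83 and a difference of 0.38 (SE 0.26). KO replicate 2 alone stood above both WT arrays for Hadhb, and the difference was 0.09 without it. The genes lie back to back on chromosome 5, with starts 273 bases apart on opposite strands, and the Hadhb window at chr5:30155003-30155302 (GRCm38.p6, plus strand, RefSeq) is shown as the sequence between them. Capitals mark the 228 bases that it shares with the window of Hadha.
Hadhb: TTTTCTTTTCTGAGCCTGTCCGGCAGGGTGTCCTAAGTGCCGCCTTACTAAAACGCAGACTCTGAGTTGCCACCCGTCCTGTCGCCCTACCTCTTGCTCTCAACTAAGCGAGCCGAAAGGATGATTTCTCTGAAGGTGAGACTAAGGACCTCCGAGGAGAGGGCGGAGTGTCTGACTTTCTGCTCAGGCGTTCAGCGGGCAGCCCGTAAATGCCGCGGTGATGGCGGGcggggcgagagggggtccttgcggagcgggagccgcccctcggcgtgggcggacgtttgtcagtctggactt
The pair thus had a common start region and separate probe sets, of which that of Hadhb was the more variable.

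Echs1, the short-chain enoyl-CoA hydratase, read 8.18 and 8.27 in KO and 8.16 and 8.12 in WT. The groups did not overlap, with a difference of 0.08 (SE 0.18) that was 0.036 without KO replicate 2. Hadh, the short- and medium-chain hydroxyacyl-CoA dehydrogenase, differed by -0.03 (95% interval -0.48 to 0.41) and Acaa2, the mitochondrial thiolase, by 0.0031 (95% interval -0.45 to 0.45). Acaa2 turned to -0.0020 with median centring, -0.041 with repeated quantile normalization and -0.0085 with cyclic loess.

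The auxiliary enzymes for unsaturated fatty acids were both lower. Decr1, the dienoyl-CoA reductase, read 5.85 and 6.17 in KO and 6.25 and 6.29 in WT, a difference of -0.26 (SE 0.20) without overlap that was -0.09 without KO replicate 1. Eci1, the enoyl-CoA isomerase, differed by -0.07 (SE 0.18), or -0.036 without KO replicate 1. The electron transfer flavoproteins take the electrons from these dehydrogenases. Etfb, the beta subunit, read 8.14 and 8.32 in KO and 8.43 and 8.31 in WT, which overlap, with a difference of -0.14 (SE 0.19) that was -0.050 without KO replicate 1. The alpha subunit Etfa differed by -0.07 and the oxidoreductase Etfdh by 0.03; the 4 arrays of Etfdh lay within 0.07, the narrowest range of the 32 genes.

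**Figure D3:**
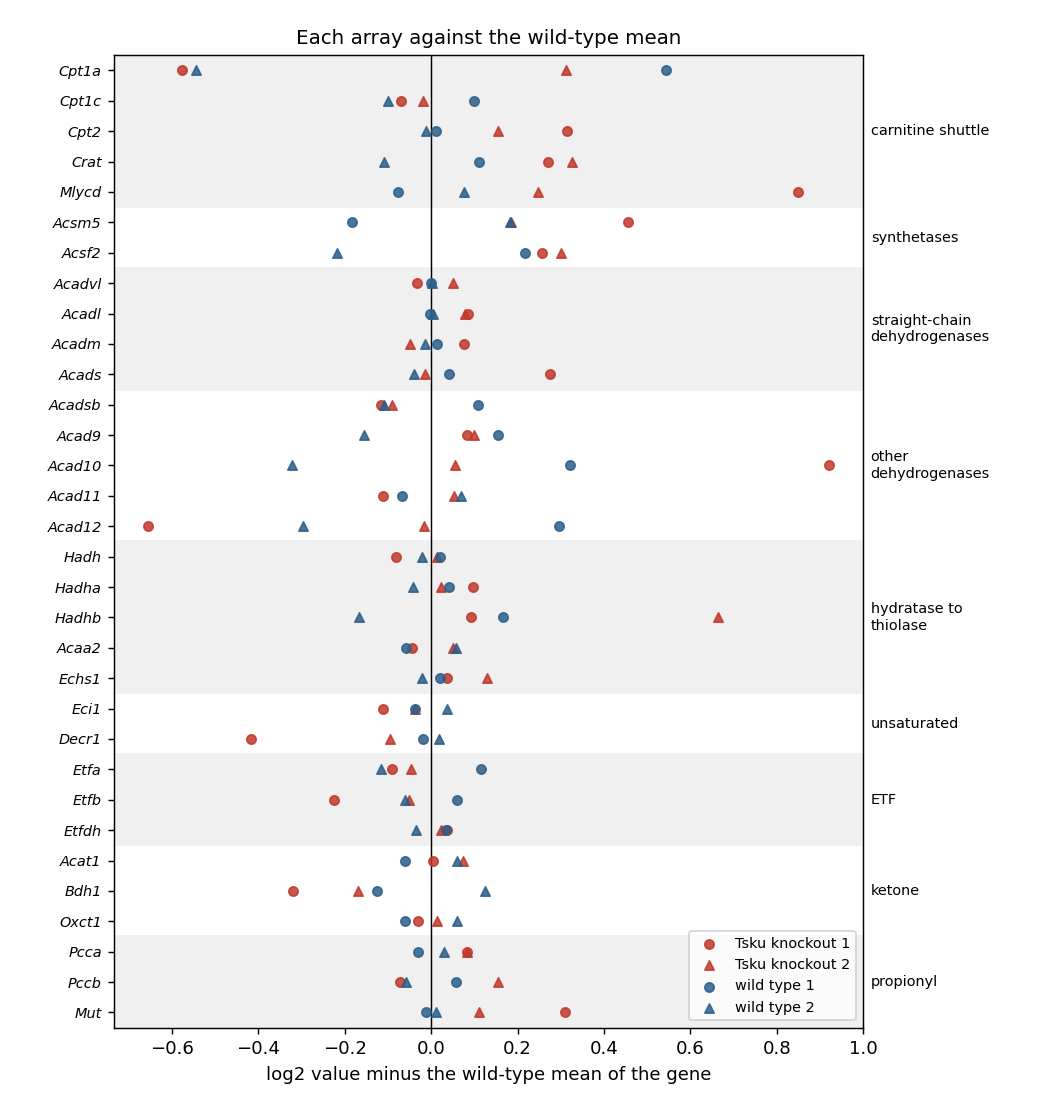
Log2 value of each array minus the WT mean of the same gene (x axis) for the 32 measured genes, grouped by role; red symbols are KO, blue WT, circles replicate 1 and triangles replicate 2. The points farthest from 0 are KO replicate 1 for Acad10 and Mlycd, and the 4 arrays of Etfdh, Acadvl and Acadl lie within 0.09.

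Ketone body genes differed by -0.24 to 0.04. Acat1, the mitochondrial acetoacetyl-CoA thiolase, read 9.28 and 9.35 in KO and 9.22 and 9.34 in WT, a difference of 0.04 (SE 0.18). Oxct1, the transferase that lets tissues outside the liver use acetoacetate, differed by -0.01 (95% interval -0.46 to 0.44). Bdh1, the hydroxybutyrate dehydrogenase, read 0.17 and 0.32 in KO and 0.36 and 0.61 in WT, below background on all 4 arrays, so its difference of -0.24 carries little information. Of 11 other ketone genes measured 7 were higher and 4 lower, with a median of 0.08 and 0 at an unadjusted limma p under 0.05. The nearest were Acat3 (-0.38), Sirt5 (0.40), Oxct2b (0.23, below background on all arrays) and the monocarboxylate transporter gene Slc16a7 (-0.26).

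The propionyl-CoA pathway, which converts the remnant of odd-chain fatty acids to succinyl-CoA, had KO means above WT means in its 3 genes, of which Pccb turned when single arrays were left out. Mut, methylmalonyl-CoA mutase, read 7.41 and 7.21 in KO and 7.09 and 7.11 in WT, a difference of 0.21 (SE 0.19) without overlap that was 0.11 without KO replicate 1. Pcca, the alpha subunit of propionyl-CoA carboxylase, read 7.44 and 7.44 in KO and 7.33 and 7.39 in WT, also without overlap, with a difference of 0.08 (SE 0.18) that was 0.053 without WT replicate 1. Pccb, the beta subunit, differed by 0.04 (SE 0.19), by -0.018 without WT replicate 2 and by -0.073 without KO replicate 2. Of 7 partner genes 5 were higher, with a median of 0.18, and 1 had an unadjusted limma p under 0.05, against 5.56% of all genes. This was Hlcs, the ligase that attaches biotin to the carboxylase, at 2.47 and 1.96 in KO and 1.55 and 1.60 in WT, a difference of 0.64 (SE 0.23, limma adjusted p = 0.872).

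Of 28 further enzymes and transporters around beta-oxidation 16 were higher and 12 lower, with a median of 0.04. An unadjusted limma p under 0.05 was found for 1 of them, against 5.56% of all genes. This was Nudt13, a mitochondrial nudix hydrolase gene, with a difference of 0.48 (SE 0.18). The next were Gcdh, the glutaryl-CoA dehydrogenase (-0.42), and the acyl-CoA synthetase genes Slc27a2 (-0.48) and Acsl5 (0.51).

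Receptors and cofactors that control oxidation included larger differences, none past the threshold. Among 20 measured PPAR and ERR regulators, 14 were higher, with a median of 0.08. At an unadjusted limma p under 0.05 there were 2 higher and 1 lower, against 2.89% and 2.67% of all genes. Ppard, a receptor for fatty acids, read 3.92 and 3.46 in KO and 2.59 and 2.23 in WT, a difference of 1.27 (SE 0.25, limma adjusted p = 0.872). Rxrg, a partner receptor, differed by 0.90 and Hnf4a, a receptor prominent in liver, by -0.70 with 1 of 2 KO arrays above background; Rxrb differed by 0.52. The KO and WT arrays of Ppard and Rxrg did not overlap. Ppara differed by 0.08 (95% interval -0.39 to 0.55), Ppargc1a by 0.35 (-0.29 to 0.98) and Esrra by 0.07 (-0.70 to 0.83).

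Of 18 PPAR target genes outside beta-oxidation 11 were higher, with a median of 0.17. The count at an unadjusted limma p under 0.05 was 1, against 5.56% of all genes. This was the fatty acid binding protein gene Fabp3 (1.37, limma adjusted p = 0.872). Fgf21, an endocrine factor, was below background on both WT arrays. With the WT values raised to background, its KO mean was 1.13-fold higher. Its unadjusted limma p was not under 0.05. Vnn1 differed by 0.35 and the lipid droplet coat gene Plin4 by 0.36. Pdk4, the kinase that spares glucose when fat is burned, read 9.04 and 9.17 in KO and 9.22 and 9.25 in WT, a difference of -0.13 without overlap. Ucp1, the uncoupling protein of brown fat, differed by 0.55 (95% interval 0.10 to 0.997, limma adjusted p = 0.872).

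**Figure D4:**
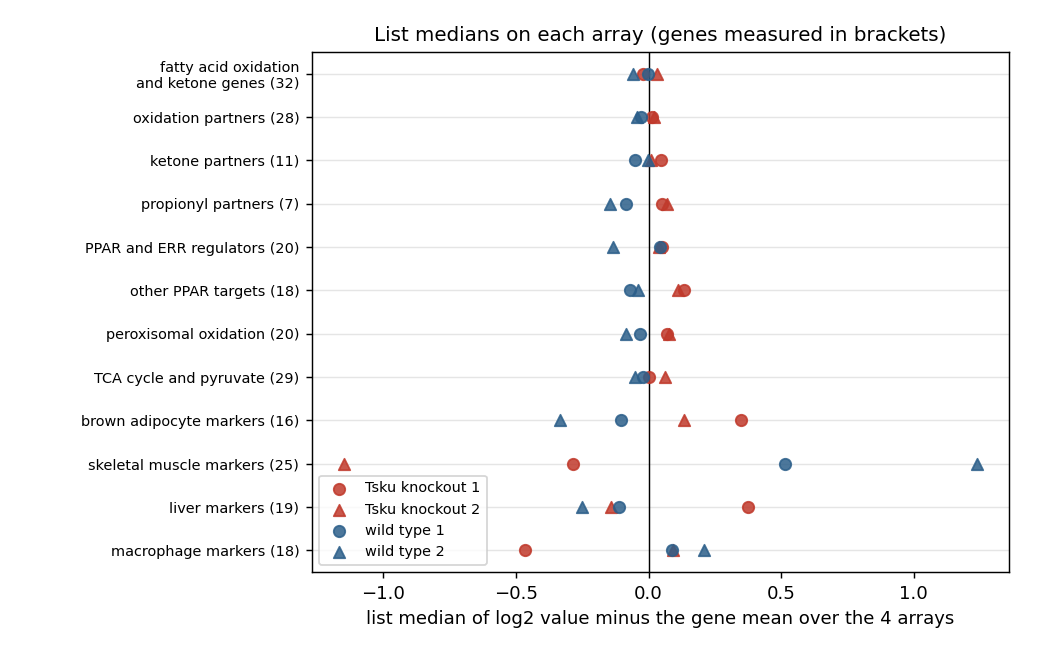
Median over each gene list of the log2 value minus that gene's 4-array mean (x axis), for KO (red) and WT (blue), circles replicate 1 and triangles replicate 2; brackets give the genes measured. The oxidation and ketone genes lie between -0.06 and 0.03 on all arrays, whereas skeletal muscle markers run from -1.15 on KO replicate 2 to 1.24 on WT replicate 2.

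Set against neighbouring pathways, the oxidation genes had the smaller median difference, and the lists were not tested against each other. Peroxisomal oxidation, which shortens very long chains, had 17 of 20 genes higher, against 52.6% of all genes, with a median of 0.11. At an unadjusted limma p under 0.05 there were 2, against 5.56% of all genes. These were the thiolase gene Acaa1b (1.15) and the transporter gene Abcd2 (0.73); Acaa1a differed by 0.49, Pecr by 0.59 and Ehhadh by 0.31 (95% interval -0.47 to 1.09). Acaa1a and Acaa1b are near-identical paralogs, and how far their probe sets read each other's RNA was not tested. Tricarboxylic acid cycle and pyruvate genes had 18 of 29 higher with a median of 0.06, and 1 at an unadjusted limma p under 0.05, the pyruvate carboxylase gene Pcx (0.57). Sucla2 differed by -0.28, Pdk1 by 0.28, Pdhx by 0.27 and citrate synthase, Cs, by 0.15. Relative to a gene's own 4-array mean, the median oxidation gene stood at -0.02 and 0.03 on the KO arrays and at 0.00 and -0.06 on the WT arrays.

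The signals were also steady across the 4 arrays. The 4 arrays lay within 0.25 of each other in 17 of 32 members (53.1%), against 14.4% of all genes. Steadiness went with brightness. Of 20 members with a mean of at least 7, 15 (75.0%) lay within 0.25, against 51.1% of the 483 genes that bright. Of the 12 dimmer members, of which 11 were above background on all arrays, 2 did, against 1039 of the 9444 dimmer genes above background. These limits were chosen after the values were seen.

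Nuclear receptor motifs were looked for in the promoter windows because PPAR and ERR receptors are known to act on several of these genes. The half-site AGGTCA was in the windows of 6 of the 28 listed genes with a window (21.4%), Acadm, Acadvl, Cpt1a, Cpt1c, Echs1 and Pcca. By window it was in 7 of the 31 of these genes, against 16.3% of all windows. The ERR motif TCAAGGTCA, which contains the half-site, was in 0 of the 28, against 0.423% of all windows. The half-site repeated exactly on one strand with 1 base between, a strict form of the PPAR element, was also in 0 of the 28, against 0.0396% of all windows. Both longer motifs are so rare over all windows that 0 of 28 carries no information about these genes. These letters say nothing of inexact sites or of sites outside the windows.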

How the data were processed

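Total RNA of each sample was labelled with biotin and hybridised to its own whole-transcript array, per the labels' protocols. The deposited file is a single table of normalized log2 values for 41345 probe sets. The submitters' processing notes list RMA, oligo and limma, without saying what each did or in which version, and the genome build is not given in the sources used here. RMA works on a log2 scale, so base 2 is assumed. Array medians of 0.56 to 0.58 are low for RMA, for a reason not stated; a constant offset cancels in differences but shifts every level. RMA compresses differences of dim probe sets. The platform annotation gives 1 symbol to 23521 probe sets, which name 22180 genes.

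The groups were compared with limma 3.58.1 in R 4.3.3 (lmFit, eBayes, no block, no filter, two-sided, Benjamini-Hochberg over all genes), with 2 residual and 3.96 prior degrees of freedom. The scripts were tested on simulated data. Members and lists were chosen with earlier results of these data known. Array values are given for members whose groups do not overlap and for the largest difference above background in each role; Acad12, Cpt1a, Cpt1c and Hadha were added after their values were seen. Up to 4 genes with the smallest p are named per pathway list, besides key genes named whatever their p (Slc25a20, Ppara, Ppargc1a, Esrra, Pdk4, Ucp1, Ehhadh and Cs). Alternatives changed the block, filter, probe set, scaling, prior variance and arrays used. Some genes that the rule names are not reported here. Promoter windows were searched for exact motif letters on both strands. The short NRF1 core replaced a longer form after the matches of the longer form were seen.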

Additional observations from a re-analysis of the deposited data

How the results depend on the processing

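Over 13 alternatives 0 members had an adjusted limma p under 0.05, and the smallest adjusted p was 0.676. The median difference over members stayed between 0.02 and 0.06, and 17 to 22 members were higher. An unadjusted limma p under 0.05 was reached by 1 member, Crat, when the prior variance followed the mean and by 1, Mlycd, without KO replicate 2, so that leaving out single arrays gave 0 to 1 member higher. The sign changed under another scaling for Acaa2 (-0.0020 with median centring, -0.041 with repeated quantile normalization, -0.0085 with cyclic loess), Acadvl (-0.0011 with cyclic loess), Etfdh (-0.016 with repeated quantile normalization) and Oxct1 (0.015 with the same). Leaving out single arrays changed the sign of 15 members. Their differences ran from -0.68 to 0.41 for Cpt1a, -0.064 to 0.25 for Acad9, -0.014 to 0.28 for Acads, -0.18 to 0.048 for Etfa, -0.073 to 0.15 for Pccb, -0.21 to 0.0056 for Acadsb, -0.14 to 0.055 for Cpt1c, -0.11 to 0.053 for Acad11, -0.049 to 0.075 for Acadm, -0.022 to 0.099 for Acat1, -0.068 to 0.051 for Oxct1, -0.054 to 0.061 for Acaa2, -0.080 to 0.012 for Hadh, -0.032 to 0.050 for Acadvl and -0.0052 to 0.066 for Etfdh. The other 17 members kept their direction throughout. Over all genes the count past the threshold was 1 with replicate number as a block, 1 with a prior variance that followed the mean and 0 to 15 without single arrays. Genes at an unadjusted limma p under 0.05 were 356 higher and 357 lower with the filter on dim genes, which tests fewer genes, and ran from 416 to 888 higher and 358 to 751 lower without single arrays. Except for the filter, the causes were not tested. Samples sharing a replicate number did not deviate together (r = -0.07 across genes), and the replicate block moved no member past the threshold. With 2 arrays a genotype, this cannot show whether the numbers pair the samples. At the 99th percentile 29 members were above background. With 2 arrays a genotype the median half-width of a member's 95% interval was 0.46.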
